A study of Mus musculus with 22 samples.

Results

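The genes described are 10 GTPases that interferon gamma is known to induce in mouse cells: Irgm1, Irgm2, Igtp, Iigp1, Tgtp1, Tgtp2, Gbp2, Gbp3, Gbp6, and Gbp7. They were chosen by their measured group levels, as genes highest in kidneys of mice given both cisplatin and KW6002, so those levels are given as a description without a test. All 10 were among the 32858 genes of the count table, and all 10 were among the 17131 genes with enough counts to be tested. In the data, 9 of the 10 had their highest group mean in the co-treated mice, against 20.3% of all tested genes. The exception was Tgtp2, whose mean was highest in the KW6002 group, so the description by which it was chosen did not hold for it.

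The kidneys came from male C57Bl6/J mice of 8 to 10 weeks, and 1 RNA-Seq library was made per mouse. Vehicle-treated mice (n = 5) received a mixture of DMSO, cremophor, and saline, and KW6002-treated mice (n = 6) received KW6002 (istradefylline, an adenosine receptor antagonist) at 3 mg/kg daily from day -5 to day 7. Cisplatin, a platinum drug that damages the tubules of the kidney, was injected intraperitoneally at 3 mg/kg on 6 days (n = 5), and co-treated mice (n = 6) had both schedules. The mice were killed on day 8, which was 72 hours past the final dose of cisplatin. By the numbers in the sample labels, 3 vehicle-treated and 3 KW6002-treated mice belong to a 300s series and 16 mice to a 500s series. The cisplatin and co-treated groups hold mice of the 500s series alone, and the labels do not say what the series stand for. Values are in CPM, gene counts relative to the library total after scaling with the TMM method. Totals ran from 26471762 to 40510754 counts, and the fitted coefficient of variation among mice treated alike was 0.129. A gene passed the test at an adjusted p below 0.05 (edgeR's quasi-likelihood test on all 22 libraries, Benjamini-Hochberg adjustment over the tested genes).

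Interferon gamma, which T cells and NK cells secrete, binds a receptor made of IFNGR1 and IFNGR2. The kinases JAK1 and JAK2 then start a signal that acts on GAS elements in DNA and induces IRF1, a factor that binds the related ISRE elements. Among the induced genes are the immunity-related GTPases (IRG) and the guanylate-binding proteins (GBP), which act against bacteria and parasites that live in vacuoles. Irgm1, Irgm2, and Igtp encode regulatory IRG proteins that sit on membranes of the cell itself and hold the effector IRG proteins inactive there, and Irgm1 also has a part in autophagy. Iigp1, Tgtp1, and Tgtp2 encode effectors that coat vacuoles, and the GBP proteins follow them and help to open the vacuole and to start inflammasome signalling. In uninfected tissue these genes are mainly known as sensitive readouts of interferon gamma.

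The genes lie in a few clusters of the genome (build mm10). On chromosome 11, Irgm1 (ENSMUSG00000046879, chr11:48861968-48871683), Tgtp1 (ENSMUSG00000078922, chr11:48985327-48994172), and Tgtp2 (ENSMUSG00000078921, chr11:49057194-49064206) are on the minus strand, and Igtp (ENSMUSG00000078853, chr11:58199556-58207591) and Irgm2 (ENSMUSG00000069874, chr11:58199618-58222782) are on the plus strand. Chromosome 3 holds Gbp7 (ENSMUSG00000040253, chr3:142530342-142550149), Gbp3 (ENSMUSG00000028268, chr3:142560026-142573209), and Gbp2 (ENSMUSG00000028270, chr3:142620602-142638008). Gbp6 (ENSMUSG00000104713, chr5:105270702-105293698) lies apart from these, as does the remaining gene, whose position is given with its values. Close copies limit what could be counted, since the authors kept uniquely aligned reads of 50 bases. Of the 50-base stretches of the annotated transcripts, 81.2% of those of Tgtp1 and 86.6% of those of Tgtp2 also occur in another gene, almost all in the other Tgtp gene. For Gbp6 the share was 70.6%, mostly with Gm43302, which shares 1726 exon bases with it, and for the other 7 genes it was between 0.38% for Irgm1 and 12.7% for Gbp7. Igtp and Irgm2 overlap by 162 exon bases on the same strand. The values of Tgtp1, Tgtp2, and Gbp6 therefore rest on small parts of these genes, and how reads divided between close copies is uncertain.

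RefSeq promoter windows (build GRCm38.p6, 250 bases before to 50 bases after the annotated start) were at hand for 8 of the 10 genes, 1 window each except for Gbp3, which had 2. They are shown because GAS and ISRE elements are where interferon signals are known to act on DNA. The RefSeq start is not always the outer end of the gene position given above. The stretches shown for Irgm2, Tgtp1, and Irgm1 lie inside those positions, and that for Gbp2 runs over the start of its gene. Those for Irgm1 and Gbp2 overlap annotated exons of the same genes. The letters searched were TTCNNNGAA for GAS and, for the core of the ISRE, a GAAA followed after any 2 bases by another GAAA, both on either strand. Of these 9 windows, 8 held an ISRE core and 5 a GAS, against 3.44% and 8.3% of the 32851 windows of all genes, and the second window of Gbp3 held neither. Both motifs together occurred in 5 of the 9 and in 0.454% of all windows. In Irgm2, Igtp, Tgtp1, and Tgtp2 the ISRE core began 11 bases after the start of the GAS. The sequences run 5′ to 3′ in the direction of the gene and the capitals mark the motif matches.
Irgm2 (chr11:58214864-58214963, plus strand): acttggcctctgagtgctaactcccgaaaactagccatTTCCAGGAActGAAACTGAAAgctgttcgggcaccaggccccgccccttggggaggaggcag
Igtp (chr11:58199443-58199542, plus strand): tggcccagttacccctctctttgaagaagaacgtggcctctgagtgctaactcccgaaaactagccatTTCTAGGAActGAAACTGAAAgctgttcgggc
Tgtp1 (chr11:48992260-48992359, minus strand): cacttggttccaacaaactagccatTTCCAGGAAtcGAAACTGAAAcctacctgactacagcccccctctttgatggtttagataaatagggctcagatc
Tgtp2 (chr11:49064226-49064325, minus strand): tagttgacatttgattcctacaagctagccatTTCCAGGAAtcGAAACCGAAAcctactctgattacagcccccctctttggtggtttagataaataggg
That spacing was noticed after the sequences had been read. It occurred in 5 of all windows (0.0152%), and the remaining window belonged to Gm12185, which overlaps the exons of Tgtp1. Over 60 aligned bases around the GAS, Irgm2 and Igtp shared 58 bases and Tgtp1 and Tgtp2 shared 46, so these are related sequences and not independent matches.

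Gbp7 held 2 GAS matches and an ISRE core farther apart. Irgm1, Gbp2, and Gbp3 held ISRE cores alone, and in Irgm1 and Gbp3 a pair of matches overlapped. For Gbp2 a stretch of 30 bases around the match is shown.
Gbp7 (chr3:142530223-142530322, plus strand): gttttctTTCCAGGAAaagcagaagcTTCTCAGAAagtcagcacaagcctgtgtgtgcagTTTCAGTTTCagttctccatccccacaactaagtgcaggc
Irgm1 (chr11:48871434-48871533, minus strand): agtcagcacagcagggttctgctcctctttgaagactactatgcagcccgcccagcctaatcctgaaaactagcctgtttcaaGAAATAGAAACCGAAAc
Gbp3 (chr3:142559931-142560025, plus strand): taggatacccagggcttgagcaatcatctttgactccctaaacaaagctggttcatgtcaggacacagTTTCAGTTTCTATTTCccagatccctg
Gbp2 (chr3:142620594-142620623, plus strand): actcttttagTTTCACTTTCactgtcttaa
A match describes the letters of the reference genome in this window, and binding was not measured.

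**Figure D1:**
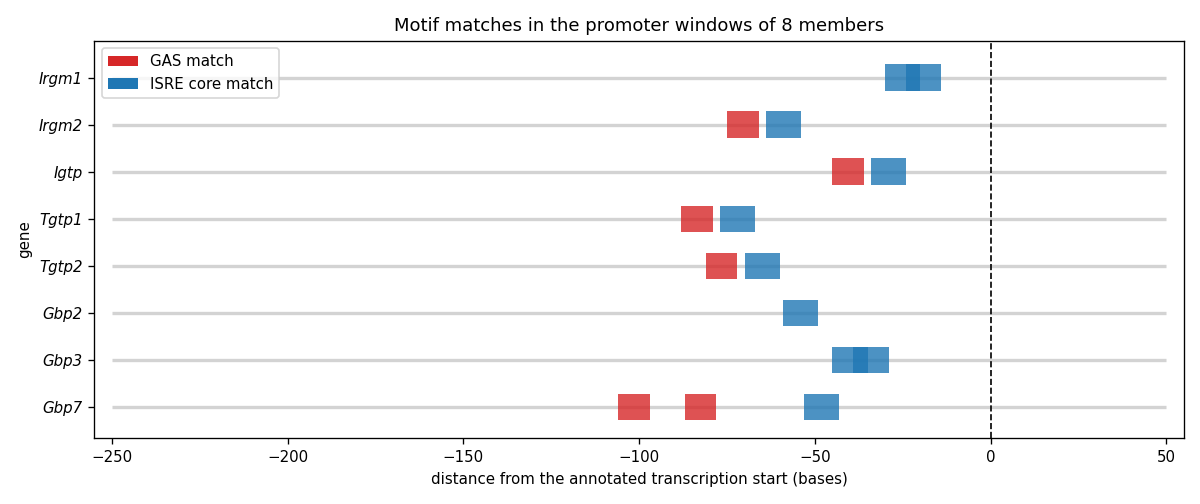
Position of GAS matches (red) and ISRE core matches (blue) relative to the annotated transcription start (dashed line) in the promoter windows of 8 genes, with distance in bases on the x axis and genes on the y axis. In Irgm2, Igtp, Tgtp1, and Tgtp2 each GAS is followed by an ISRE core 11 bases on.

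Transcripts of the 3 regulatory IRG genes were higher in every co-treated mouse than in any mouse of the other groups. Irgm1 measured 66.2, 51.6, 56.5, 48.7, and 47.0 CPM in the 5 vehicle-treated mice, and from 48.3 to 59.7 CPM with a median of 54.9 in the 6 given KW6002. With cisplatin it measured 58.0, 59.1, 58.3, 59.8, and 66.4 CPM, and in the co-treated mice it ranged from 97.8 to 192 CPM with a median of 136. Every co-treated mouse was above all 16 others. Group means were 54.0 ± 7.72 (SD, n = 5) CPM with vehicle, 60.3 ± 3.47 (SD, n = 5) with cisplatin, and 141 ± 30.7 (SD, n = 6) in co-treated mice. The fitted log2 fold change was 1.22 (SE 0.12) against cisplatin and 1.38 (SE 0.12) against vehicle.

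Igtp measured 19.8, 15.9, 16.2, 13.4, and 13.6 CPM with vehicle, and from 17.4 to 20.1 CPM with a median of 18.01 with KW6002. It measured 13.02, 13.6, 12.2, 13.3, and 15.1 CPM with cisplatin, and from 35.9 to 66.7 CPM with a median of 43.4 in co-treated mice. The lowest co-treated mouse was thus above the highest of the others, and the log2 fold change was 1.78 (SE 0.13) against cisplatin and 1.55 (SE 0.13) against vehicle. Irgm2 measured 31.3, 29.2, 27.004, 21.4, and 22.9 CPM with vehicle, and from 24.6 to 29.8 CPM with a median of 28.5 with KW6002. Its cisplatin values were 27.1, 26.005, 24.02, 22.3, and 29.1 CPM, and its co-treated values ran from 47.3 to 67.0 CPM with a median of 53.0. Again no mouse of another group reached the co-treated range, and the log2 fold change was 1.10 (SE 0.10) against cisplatin and 1.07 (SE 0.10) against vehicle.

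The effector genes differed more from each other. Iigp1 (ENSMUSG00000054072) lies at chr18:60376027-60392634 on the plus strand, and like Gbp6 it had no promoter entry. It measured 18.4, 13.6, 12.9, 12.3, and 13.4 CPM with vehicle, and from 12.0 to 20.2 CPM with a median of 14.3 with KW6002. Its values were 12.8, 11.2, 13.1, 14.7, and 17.04 CPM with cisplatin, and from 20.4 to 36.9 CPM with a median of 23.3 in co-treated mice. The co-treated mice were all above the others, but by a narrow margin, since the lowest measured 20.36 CPM and the highest KW6002-treated mouse 20.24 CPM. Tgtp1 measured 1.84, 1.24, 1.38, 1.06, and 1.85 CPM with vehicle, and from 0.813 to 2.23 CPM with a median of 1.67 with KW6002. It fell to 0.399, 0.477, 0.426, 0.455, and 0.425 CPM with cisplatin, or 15 to 19 counts, and in co-treated mice it ranged from 2.67 to 6.72 CPM with a median of 3.04. Tgtp1 thus had the highest fold of the 10 genes between co-treated and cisplatin-treated mice, a log2 fold change of 3.10 (SE 0.28), while that against vehicle was 1.34 (SE 0.25).

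Tgtp2 measured 1.55, 1.20, 1.58, 1.13, and 1.69 CPM with vehicle, and from 1.05 to 2.30 CPM with a median of 1.81 with KW6002. With cisplatin it measured 0.719, 0.301, 0.586, 0.428, and 0.708 CPM, and in co-treated mice from 1.34 to 1.77 CPM with a median of 1.43. The co-treated mice lay within the vehicle and KW6002 ranges and above every cisplatin-treated mouse. The log2 fold change was 1.45 (SE 0.23) against cisplatin and 0.06 (SE 0.21) against vehicle, so that Tgtp2 in co-treated mice was at the vehicle level, whereas Tgtp1 was above it.

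Among the GBP genes, Gbp7 and Gbp3 were higher with cisplatin alone and higher still in co-treated mice. Gbp7 measured 20.97, 18.9, 16.8, 11.4, and 13.7 CPM with vehicle, and from 15.4 to 20.98 CPM with a median of 18.3 with KW6002. It measured 32.7, 34.8, 30.8, 32.3, and 36.6 CPM with cisplatin, and from 39.4 to 59.2 CPM with a median of 51.9 in co-treated mice. The vehicle and KW6002 mice together, the cisplatin mice, and the co-treated mice formed 3 steps without overlap, with a log2 fold change of 0.57 (SE 0.13) between co-treated and cisplatin-treated mice and 1.60 (SE 0.13) between co-treated and vehicle-treated mice. Gbp3 measured 10.5, 10.9, 12.8, 8.20, and 8.46 CPM with vehicle, and from 8.28 to 11.5 CPM with a median of 10.996 with KW6002. It measured 14.4, 13.7, 17.6, 18.5, and 17.97 CPM with cisplatin, and from 16.8 to 24.4 CPM with a median of 20.99 in co-treated mice. The cisplatin and co-treated ranges of Gbp3 overlapped, and its log2 fold change between them, 0.33 (SE 0.12), was the lowest of the 10 genes.

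Gbp2 measured 19.3, 17.2, 13.8, 12.955, and 12.7 CPM with vehicle, and from 13.2 to 17.6 CPM with a median of 15.4 with KW6002. It measured 16.9, 15.1, 17.5, 18.2, and 19.5 CPM with cisplatin, and from 21.5 to 34.1 CPM with a median of 27.4 in co-treated mice. All co-treated mice were above the others, with a log2 fold change of 0.67 (SE 0.12) against cisplatin and 0.87 (SE 0.12) against vehicle. Gbp6 measured 2.40, 1.88, 2.12, 1.62, and 0.846 CPM with vehicle, and from 1.43 to 3.40 CPM with a median of 2.21 with KW6002. It measured 0.666, 0.803, 0.826, 0.962, and 1.44 CPM with cisplatin, and from 2.00 to 3.79 CPM with a median of 3.05 in co-treated mice. Gbp6 in co-treated mice was above every cisplatin-treated mouse but overlapped the vehicle and KW6002 groups, with a log2 fold change of 1.68 (SE 0.26) against cisplatin and 0.76 (SE 0.25) against vehicle.

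**Figure D2:**
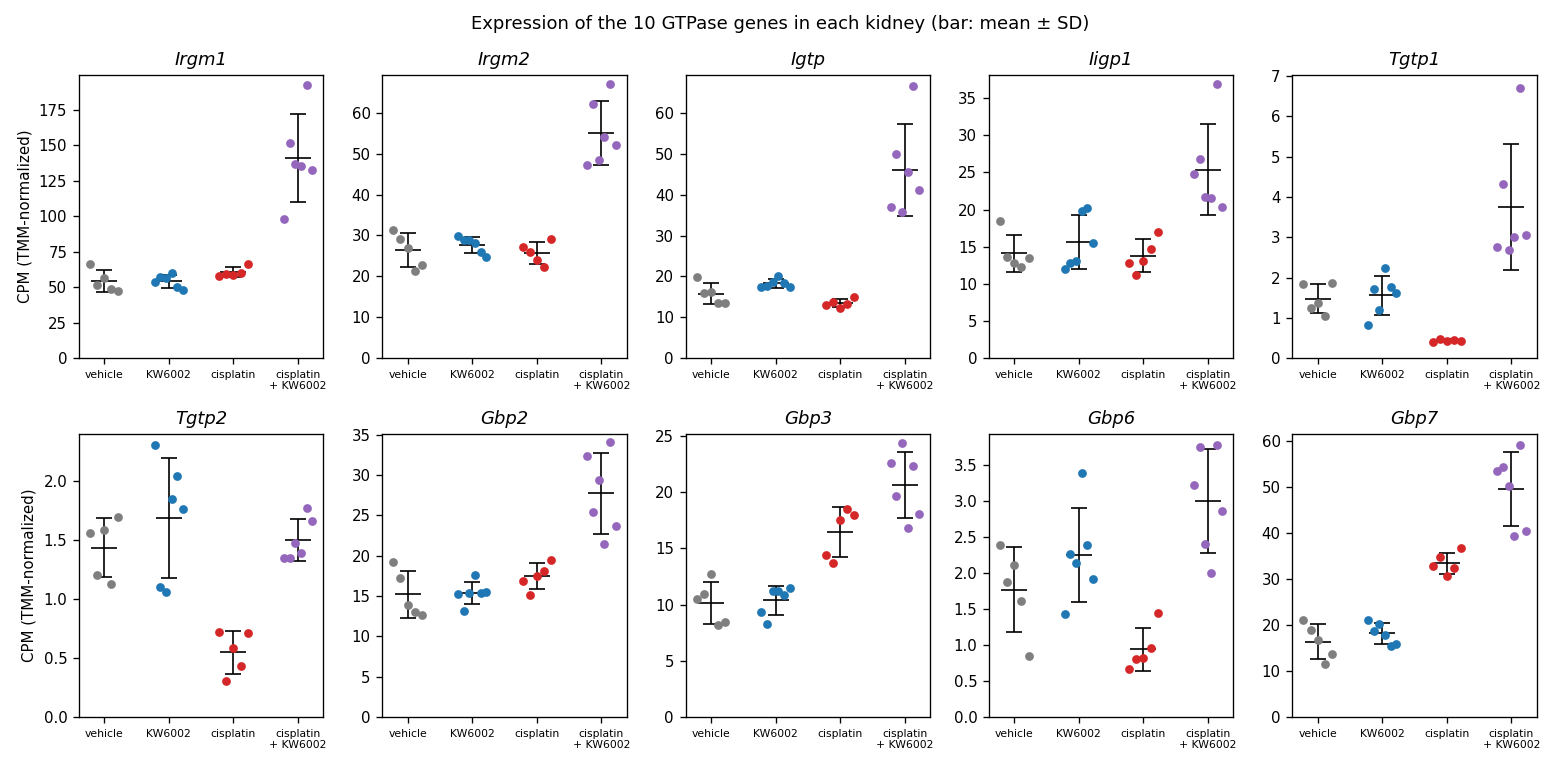
CPM of the 10 genes (y axis, each panel from 0) in every kidney by group (x axis), 1 point per mouse, with bars at the mean ± SD of 5 or 6 mice. The co-treated points lie above all others for 7 genes and overlap another group for Tgtp2, Gbp3, and Gbp6.

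Over the 10 genes, all 6 co-treated mice were above all 16 others for 7 genes, where 2.4% of all tested genes have that order. They were above all cisplatin-treated mice for 9 (19.3% of all tested genes) and above all vehicle-treated mice for 8 (18.9%). Since this level chose the genes, nothing is read from these shares. The median log2 fold change of the 10 genes was 1.16 between co-treated and cisplatin-treated mice, where that of all tested genes was 0.00 when rounded, and 1.04 between co-treated and vehicle-treated mice, or 1.31 with mice of the 500s alone. Co-treated replicate 5 had the highest value of its group for 9 of the 10 genes, Gbp3 excepted, and their summed level there was 491 CPM, against 323 to 399 CPM in the other 5 co-treated mice. Without that mouse the median against cisplatin was 1.08. The 10 T cell markers summed to 3.82 CPM and the 10 NK cell markers to 1.45 CPM in replicate 5, within the group ranges of 3.73 to 5.87 and 1.32 to 3.15 CPM.

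Compared per kilobase of annotated exon, the mean levels in co-treated mice were 24.3 ± 5.29 (SD, n = 6) CPM per kilobase for Irgm1, 22.8 ± 5.63 for Igtp, and 14.9 ± 2.13 for Irgm2. The GBP genes followed with 11.02 ± 1.99 for Gbp2, 8.83 ± 1.42 for Gbp7, and 6.32 ± 0.900 for Gbp3, and Iigp1 had 4.35 ± 1.05. At the lower end were Tgtp1 with 1.17 ± 0.490, Tgtp2 with 0.510 ± 0.060, and Gbp6 with 0.505 ± 0.122, the genes whose unique sequence is shortest. The division was by the whole exon length, although reads from stretches shared with another gene could not be counted. Levels per kilobase of Tgtp1, Tgtp2, and Gbp6 are thus understated, and their place in this order is uncertain. Irgm1 and Igtp, and Tgtp2 and Gbp6, differed by less than their SDs. With vehicle the order was the same at the upper end, from 9.29 ± 1.33 (SD, n = 5) for Irgm1 over 7.80 ± 1.29 for Igtp to 7.14 ± 1.14 for Irgm2, whose SDs overlapped.

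Cisplatin alone moved the genes in opposite directions, a comparison that holds no co-treated mouse. Against vehicle, 2 of the 10 were higher (Gbp7 and Gbp3), where 34.6% of all tested genes were higher, and 3 were lower (Tgtp1, Tgtp2, and Gbp6), where 35.9% were lower. The 5 changed genes are a smaller share than the 70.5% of all tested genes that passed in either direction. Gbp7 rose by a log2 fold change of 1.03 (SE 0.14, edgeR adjusted p = 4.66e-07) and Gbp3 by 0.69 (SE 0.13, adjusted p = 4.80e-05), and for both every cisplatin-treated mouse was above every vehicle-treated mouse, as for 27.4% of all tested genes. Tgtp1 had a log2 fold change of -1.75 (SE 0.30, adjusted p = 1.71e-05) and Tgtp2 of -1.39 (SE 0.24, adjusted p = 2.13e-05), each with every cisplatin-treated mouse below, as for 27.9% of all tested genes. Gbp6 fell, with a log2 fold change of -0.92 (SE 0.27, adjusted p = 0.00481), and its ranges overlapped. The regulatory genes and the remaining pair did not pass, with log2 fold changes of 0.16 (SE 0.12, adjusted p = 0.242) for Irgm1, -0.03 (SE 0.11) for Irgm2, -0.23 (SE 0.13) for Igtp, -0.04 (SE 0.17) for Iigp1, and 0.20 (SE 0.13) for Gbp2.

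The label series bears on this comparison. Among vehicle-treated mice, the 2 numbered in the 500s had lower means than the 3 numbered in the 300s for each of the 10 genes. Examples were 12.6 against 18.9 CPM for Gbp7 and 1.23 against 2.13 CPM for Gbp6. The KW6002 group, with 3 mice of each series, did not share this order. There the 500s had lower means for Irgm1 (52.6 against 55.7 CPM), Irgm2, and Gbp7 only. Their means were higher for all other genes, for example 18.5 against 12.7 CPM for Iigp1 and 2.57 against 1.95 CPM for Gbp6. With mice of the 500s alone (5 cisplatin, 2 vehicle), the log2 fold change of Gbp7 was 1.41 (edgeR adjusted p = 2.50e-07), that of Gbp3 0.97 (adjusted p = 2.01e-05), that of Tgtp1 -1.74 (adjusted p = 5.68e-04), and that of Tgtp2 -1.37 (adjusted p = 2.47e-04). Gbp6 no longer passed (-0.39, SE 0.35, adjusted p = 0.341), and Gbp2 did (0.44, SE 0.15, adjusted p = 0.0179). Gbp2 also passed without vehicle replicate 1, at 0.30. Igtp did not pass with all mice (edgeR adjusted p = 0.126) but did, at -0.23, in the fit without co-treated replicate 5.

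Markers of lymphocytes and dendritic cells fell in the same comparison as Tgtp1, Tgtp2, and Gbp6. Lower with cisplatin were 6 of 8 tested T cell markers, 4 of 5 NK cell markers, 5 of 6 B cell markers, and 4 of 6 dendritic cell markers, and 1 T cell marker (Lck) and 1 NK cell marker (Eomes) were higher. Other lists differed, as 5 of 6 fibroblast markers and 2 of 5 neutrophil markers were higher, with 0 lower in either list. Of 10 macrophage markers 2 were higher and 2 lower, and of 8 endothelial markers 2 were higher and 2 lower. The thick ascending limb markers were lower for 4 of 4. Of all tested genes, 35.9% were lower and 34.6% higher. Summed over all 10 markers of each list, T cell markers ranged from 6.01 to 9.58 CPM with vehicle and from 3.81 to 4.53 CPM with cisplatin, and NK cell markers from 2.02 to 3.04 CPM and from 0.628 to 1.53 CPM. The 8 proximal tubule markers, which define the main epithelial cell of the cortex and are the most abundant here, all fell with cisplatin, from 19603 to 20978 CPM summed with vehicle to between 3666 and 5753 CPM. In whole kidneys, fewer cells of a type and less RNA per cell cannot be told apart, and the part of these markers in the values of the GTPase genes was not tested.

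With KW6002 and no cisplatin, no gene of the 10 passed the test. In edgeR 0 of 10 passed, 0 had an unadjusted p below 0.05, and DESeq2 also called 0, in a comparison where 0.0175% of all tested genes were higher, 0 genes were lower, and 11.3% had an unadjusted p below 0.05. These shares also apply to the lists below, so a list with 0 changed genes is near the share of all genes. The 10 log2 fold changes ran from 0.00 for Irgm1 to 0.34 for Gbp6 (SE 0.25, adjusted p = 0.624), with a median of 0.11. Among mice of the 500s alone (3 KW6002, 2 vehicle) they ran from 0.14 for Irgm1 (SE 0.18) to 1.06 for Gbp6 (SE 0.37, adjusted p = 0.321), with a median of 0.40, and none passed. The comparison of cisplatin with vehicle uses the same vehicle-treated mice.

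**Figure D3:**
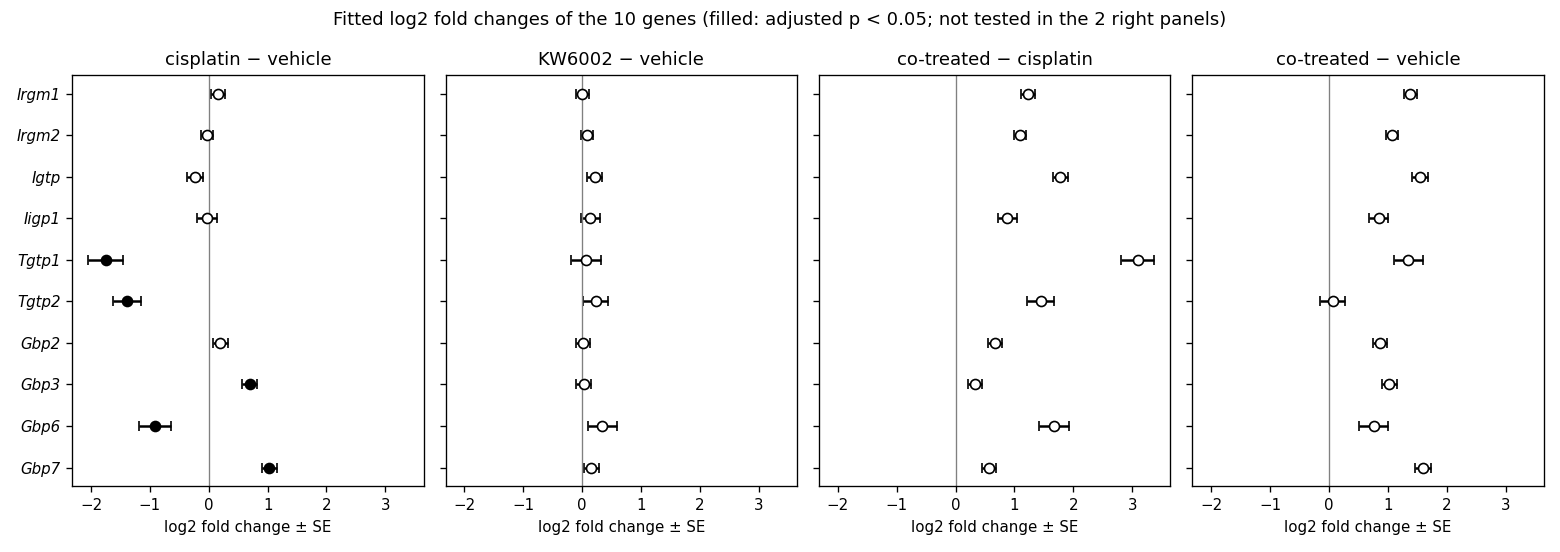
Fitted log2 fold change ± SE (x axis) of the 10 genes (y axis) in 4 comparisons, with filled points for an adjusted p below 0.05; in the co-treated panels no test was made. Points are spread to both sides of 0 for cisplatin against vehicle, lie close to 0 for KW6002 against vehicle, and are at or above 0.33 for co-treated against cisplatin.

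Within groups, most pairs of the genes varied in the same direction from mouse to mouse, a property that the choice by group level did not use. After each group's mean was subtracted from log2 CPM, 43 of the 45 pairs of genes had a positive Pearson r over the 22 mice, with a median of 0.44 and a range from -0.03 to 0.85. The median was 0.37 without co-treated replicate 5. It was also 0.37, with 40 positive pairs and a range from -0.25 to 0.85, when the vehicle and KW6002 mice were centred within the 300s and 500s series, which was added after the data were seen. Over all tested genes, the median r of a gene with these 10 was 0.00. The tightest pairs were Irgm1 with Igtp (0.85), Irgm2 with Igtp (0.83), and Irgm1 with Irgm2 (0.78), the 3 regulatory genes, and without co-treated replicate 5 these were 0.78, 0.81, and 0.73. Centred within the series they were 0.85, 0.85, and 0.75, whereas Gbp3 with Irgm2 went from 0.08 to -0.25 and Iigp1 with Gbp7 from 0.30 to 0.67. With that centring, Igtp with Iigp1 (0.773), Igtp with Tgtp1 (0.766), and Gbp2 with Gbp7 (0.766) were above Irgm1 with Irgm2 (0.753). Igtp and Irgm2 share exon bases, and Irgm1 lies elsewhere on the chromosome. The part of shared sequence in these r was not tested.

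Iigp1 varied most with Tgtp1 (0.73) and Igtp (0.69), and Gbp2 with Gbp3 (0.69) and Iigp1 (0.68). Tgtp2 stood apart, with a mean r of 0.15 to the other 9 genes and 0.09 to its own copy Tgtp1. Tgtp2 had 12 to 82 counts per library, where Irgm1 had 1260 to 6749. Counts were also low for Tgtp1 (15 to 236, mean r 0.37) and Gbp6 (25 to 133, mean r 0.455). The part of counting error in these r was not tested. Gbp3 had a mean r of 0.31, and the other 8 genes had means from 0.37 for Tgtp1 to 0.55 for Igtp. These are descriptions, since all points share the normalization of their library.

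**Figure D4:**
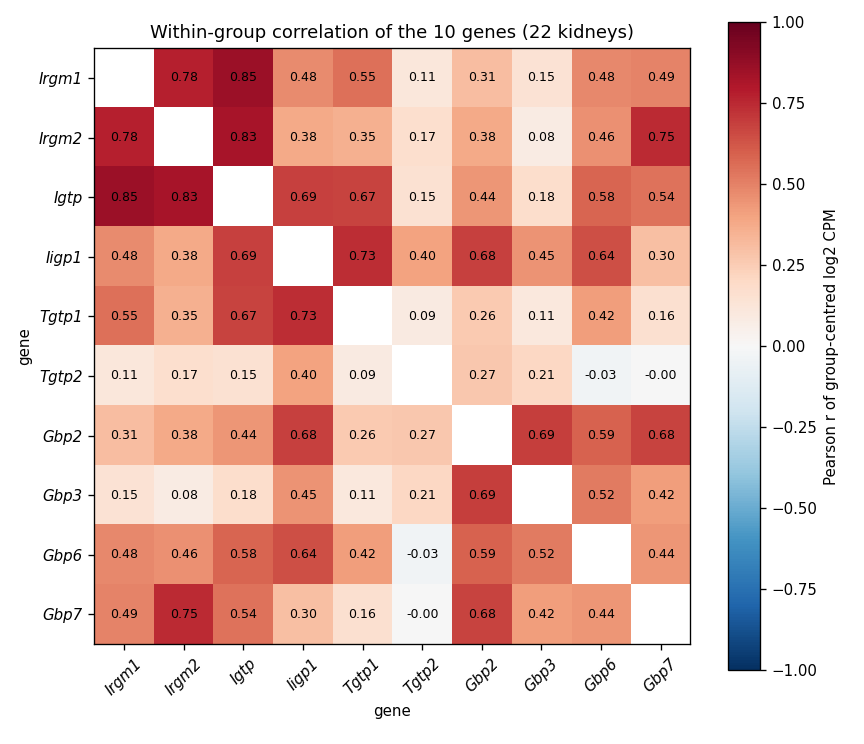
Pearson r of group-centred log2 CPM between each pair of the 10 genes over 22 kidneys, genes on both axes and r as colour and number. The 3 regulatory genes Irgm1, Irgm2, and Igtp have r from 0.78 to 0.85, and Tgtp2 is near 0 with most of the others.

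By the same measure, centred by group alone, the 8 genes outside the group that varied most like it were Ciita (mean r 0.53), Tap1 (0.52), Gm1976 (0.52), Sertad4 (0.51), Foxf1 (0.50), Rab36 (0.50), Kcne1 (0.49), and 5730403I07Rik (0.49), each over 22 mice. Without co-treated replicate 5, Ciita ranked 5, Tap1 7, Rab36 8, Foxf1 13, and Kcne1 14 among all tested genes outside the group. Gm1976 then ranked 28, 5730403I07Rik 34, and Sertad4 90. Ciita encodes the master regulator of MHC class II genes and Tap1 a subunit of the peptide transporter of MHC class I. Their group levels differed from each other. Ciita had means of 6.397 ± 2.64 CPM with vehicle, 0.940 ± 0.613 with cisplatin, and 9.51 ± 2.45 in co-treated mice, and rose between the last groups by a log2 fold change of 3.35 (SE 0.30, edgeR adjusted p = 4.71e-09). Tap1 rose with cisplatin from 12.8 ± 3.36 to 44.9 ± 2.25 CPM and was at 45.4 ± 5.98 CPM in co-treated mice, a log2 fold change of 0.02 (SE 0.12, adjusted p = 0.909).

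Of 15 other interferon-inducible IRG and GBP genes 13 could be tested, and between co-treated and cisplatin-treated mice 5 were higher (28.6% of all tested genes were) and 0 lower (27.2%), with 6 at an unadjusted p below 0.05 (60.5%). Against vehicle, 4 were higher in co-treated mice (29.8%) and 2 lower (29.9%). The median log2 fold change against cisplatin was 0.31, and 5 of the 13 estimates were negative. The IRG gene Ifi47 had 4.71 ± 0.980 CPM with vehicle, 5.43 ± 0.373 with cisplatin, and 7.91 ± 0.553 in co-treated mice, where it ranged from 7.30 to 8.69 CPM and was above all cisplatin values of 5.08 to 5.91 CPM. Its log2 fold change was 0.54 (SE 0.10, edgeR adjusted p = 1.40e-04). Gm12250, annotated as an IRG pseudogene, rose by 1.06 (SE 0.21, adjusted p = 2.09e-04), from 0.733 ± 0.173 to 1.53 ± 0.329 CPM, and the IRG gene Gm4951 by 0.52 (SE 0.19, adjusted p = 0.0197).

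Among the GBP genes of this list, Gbp4 rose by 0.54 (SE 0.12, edgeR adjusted p = 6.34e-04) and Gbp9 by 0.31 (SE 0.09, adjusted p = 0.00735), whereas Gbp5, which had 4.26 ± 0.583 CPM with cisplatin and 5.31 ± 0.570 CPM in co-treated mice, missed the threshold (0.32, SE 0.14, adjusted p = 0.0517). Gbp8 (-0.17, SE 0.31) and Gbp10 (0.53, SE 0.91) did not pass, nor did 9930111J21Rik1 (-0.02, SE 0.26), 9930111J21Rik2 (-0.12, SE 0.20), F830016B08Rik (-0.19, SE 0.24), and the very large GTPase genes Gvin1 (-0.35, SE 0.36) and Gm4070 (0.09, SE 0.33). Several of these have close copies. The share of 50-base stretches also found in another gene was 99.2% for Gvin1, 97.8% for Gm4070, and 84.1% for Gbp10. For 9930111J21Rik1 it was 83.2% and for 9930111J21Rik2 59.75%, so these values rest on parts of the genes. Gbp2b and Gbp11 had too few counts. Cisplatin against vehicle gave 1 higher gene (F830016B08Rik, 0.81, SE 0.27, adjusted p = 0.0102), where 34.6% of all tested genes were higher, and 3 lower ones (35.9%). These were Gbp4 (-0.36, SE 0.13, adjusted p = 0.0159), Gm4951 (-0.63, SE 0.19, adjusted p = 0.00598), and Gbp10, which had 0 to 3 counts in each cisplatin library and 11 to 28 with vehicle and was at least 8.48-fold lower. KW6002 alone changed 0 of the 13 in edgeR, with 0 at an unadjusted p below 0.05 and 0 by DESeq2. The constitutive IRG gene Irgq, which interferon does not induce, rose with cisplatin (0.28, SE 0.06, adjusted p = 1.34e-04) and was lower in co-treated than in cisplatin-treated mice (-0.18, SE 0.05, adjusted p = 0.00702), and Irgc1 had at most 1 count in any library.

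Of the pathway above the GTPases, the ligand was at the limit of detection. Ifng had 0 counts in the 5 vehicle libraries, 0 to 2 counts in each of the other libraries, and could not be tested, so that a difference in Ifng RNA was not detectable at this depth. Among 12 tested signalling genes, 2 were higher (Irf1 and Ptpn6) and 5 lower (Ifngr1, Ifngr2, Jak2, Socs3, and Ptpn2) in co-treated than in cisplatin-treated mice. Of all tested genes, 28.6% were higher and 27.2% lower. Irf1 had 20.8 ± 1.69 CPM with vehicle, 27.4 ± 3.11 with cisplatin, and 45.2 ± 6.76 in co-treated mice, where its range of 36.1 to 55.2 CPM was above the 24.8 to 31.2 CPM of cisplatin-treated mice. Its log2 fold change was 0.72 (SE 0.09, edgeR adjusted p = 8.88e-07) against cisplatin and 1.12 (SE 0.09, adjusted p = 1.36e-09) against vehicle. Ptpn6, a phosphatase that dampens cytokine signalling, rose by 0.18 (SE 0.06, edgeR adjusted p = 0.00938).

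The receptor genes moved the other way. Ifngr1 measured 39.3 ± 7.61 CPM with vehicle, rose to 142 ± 15.9 CPM with cisplatin (log2 fold change 1.85, SE 0.11, edgeR adjusted p = 9.85e-13), and was at 69.9 ± 6.42 CPM in co-treated mice (-1.02, SE 0.10, adjusted p = 2.06e-08 against cisplatin). Ifngr2 went from 19.6 ± 2.81 to 46.5 ± 3.74 CPM and to 29.3 ± 2.48 CPM in the same order (-0.67, SE 0.08, adjusted p = 3.07e-07). Jak2 was at 46.0 ± 1.03, 65.3 ± 4.80, and 51.7 ± 2.38 CPM, and the feedback inhibitor Socs3 at 4.39 ± 2.35, 69.8 ± 4.83, and 38.6 ± 8.02 CPM. The phosphatase gene Ptpn2 fell slightly between the last groups (-0.14, SE 0.05, adjusted p = 0.0208). Jak1 (0.07, SE 0.05), Irf8 (0.05, SE 0.16), Irf9 (-0.01, SE 0.08), Socs1 (0.59, SE 0.28, adjusted p = 0.0807), and Pias1 (-0.08, SE 0.04) did not pass. With cisplatin against vehicle, 7 of the 12 signalling genes were higher (34.6% of all tested genes) and 1, Ptpn6, was lower (35.9%). KW6002 alone changed 0 of 12, with 0 at an unadjusted p below 0.05 in edgeR and 0 by DESeq2.

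Other targets of interferon gamma were divided. Of 26 tested, 11 were higher (28.6% of all tested genes were) and 3 lower (27.2%) in co-treated than in cisplatin-treated mice. The median log2 fold change was 0.18. With cisplatin against vehicle 12 were higher (34.6% of all tested genes) and 8 lower (35.9%). The MHC class II genes were among those that fell with cisplatin and were partly higher with co-treatment. Cd74, the invariant chain, had 137 ± 31.7 CPM with vehicle, 28.5 ± 6.92 with cisplatin, and 70.4 ± 19.2 in co-treated mice (1.30, SE 0.19, edgeR adjusted p = 3.57e-06). H2-Aa had 82.7 ± 17.4, 14.8 ± 3.86, and 33.6 ± 10.9 CPM (1.18, SE 0.20, adjusted p = 2.40e-05). The MHC class I light chain B2m rose with cisplatin from 257 ± 48.9 to 333 ± 14.8 CPM and was at 247 ± 15.2 CPM in co-treated mice (-0.43, SE 0.09, adjusted p = 3.68e-04), and the proteasome activator Psme1 fell by 0.24 on the log2 scale (SE 0.06, adjusted p = 9.50e-04). KW6002 alone changed 0 of 26, with 0 at an unadjusted p below 0.05 and 0 by DESeq2.

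Genes of the type I interferon response, which share ISRE elements with the GTPase genes, were mostly higher with cisplatin than with vehicle and lower in co-treated mice than with cisplatin. With cisplatin 17 of 23 were higher than with vehicle and 2 lower, and in co-treated mice 18 of 23 were lower than with cisplatin and 2, Rsad2 and Cmpk2, were higher. The median log2 fold change between co-treated and cisplatin-treated mice was -0.53 for these genes. Of all tested genes, 34.6% were higher and 35.9% lower with cisplatin than with vehicle. In co-treated against cisplatin-treated mice these shares were 28.6% and 27.2%. Ifit2 had 18.6 ± 3.07 CPM with vehicle, 42.2 ± 2.66 with cisplatin, and 24.6 ± 1.55 in co-treated mice (-0.78, SE 0.08, edgeR adjusted p = 4.02e-08), and Ifit3 had 15.3 ± 3.83, 41.3 ± 1.74, and 22.6 ± 4.71 CPM (-0.87, SE 0.14, adjusted p = 1.25e-05). Ddx58, which encodes an RNA sensor, was at 30.9 ± 4.28, 54.8 ± 1.93, and 48.9 ± 3.43 CPM (-0.17, SE 0.07, adjusted p = 0.0492). Rsad2 had the opposite course, 38.6 ± 5.84, 21.9 ± 2.24, and 29.6 ± 3.95 CPM (0.43, SE 0.13, adjusted p = 0.00863). With the fat markers as a covariate, 11 of the 23 genes passed between co-treated and cisplatin-treated mice. KW6002 alone changed 0 of 23, with 0 at an unadjusted p below 0.05 and 0 by DESeq2.

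**Figure D5:**
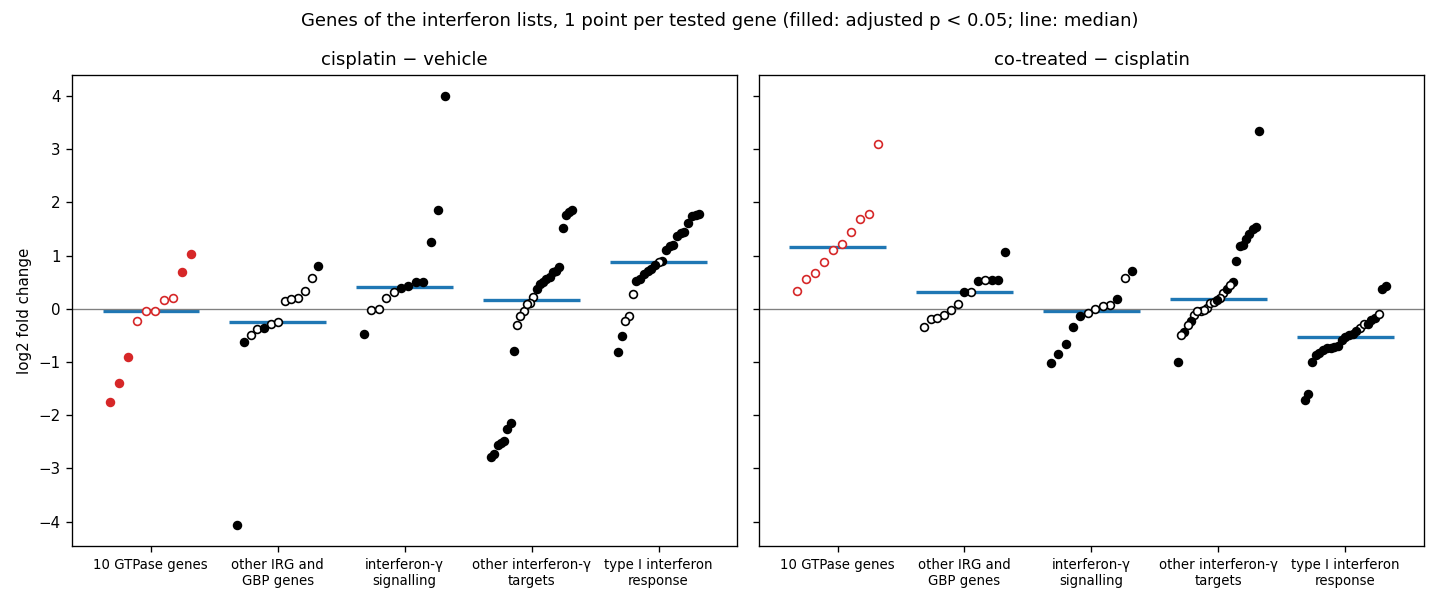
Log2 fold change (y axis) of each tested gene in 5 lists (x axis) for cisplatin against vehicle (left) and co-treated against cisplatin (right), with filled points for an adjusted p below 0.05, blue lines at the medians, and the 10 GTPases in red, which were not tested on the right. On the right the GTPases have a median of 1.16 and the type I interferon genes a median of -0.53.

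The last list holds genes whose proteins work with the GTPases: autophagy conjugation factors, which direct IRG and GBP proteins to vacuoles, ubiquitin adaptors, and inflammasome genes, with the constitutive IRG genes counted among them. Of 25 tested, 3 were higher and 4 lower in co-treated than in cisplatin-treated mice, below the shares of all tested genes. Higher were Gabarap (from 241 ± 12.3 to 322 ± 17.5 CPM, 0.42, SE 0.05, edgeR adjusted p = 3.75e-07), the ubiquitin ligase gene Traf6 (from 39.1 ± 1.75 to 60.0 ± 3.61 CPM, 0.62, SE 0.06, adjusted p = 7.02e-09), and the autophagy receptor gene Sqstm1 (from 525.5 ± 28.8 to 693 ± 54.2 CPM, 0.40, SE 0.06, adjusted p = 1.16e-05). Lower were Atg12 (-0.60, SE 0.05, adjusted p = 2.88e-10), Atg5 (-0.13, SE 0.05, adjusted p = 0.0326), the inflammasome adaptor gene Pycard (-0.74, SE 0.12, adjusted p = 2.41e-05), and Irgq. With cisplatin against vehicle 7 were higher (34.6% of all tested genes) and 4 lower (35.9%). KW6002 alone changed 0 of 25 in edgeR (0.0175% of all tested genes were higher), with 6 at an unadjusted p below 0.05 (11.3% of all tested genes), and DESeq2 called 1.

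Markers of other cell types also moved between co-treated and cisplatin-treated mice, and their part in the values of the GTPase genes was not tested. Of all tested genes, 28.6% were higher and 27.2% lower in this comparison. The 10 T cell markers together were at 3.73 to 5.87 CPM in co-treated and 3.81 to 4.53 CPM in cisplatin-treated mice, with 3 of 8 tested higher and 2 lower. Higher were Trac (from 0.435 ± 0.138 to 1.52 ± 0.653 CPM, 1.80, SE 0.35, edgeR adjusted p = 1.29e-04), Cd8a (1.75, SE 0.42, adjusted p = 0.00118), and Cd2, which had 0 to 2 counts in each cisplatin library and was at least 1.69-fold higher. Lower were Lck (-0.63, SE 0.14, edgeR adjusted p = 7.27e-04) and Cd4 (-1.07, SE 0.31, adjusted p = 0.00544). The 10 NK cell markers were at 1.32 to 3.15 against 0.628 to 1.53 CPM, with 1 of 5 tested higher, Gzma, which had 0 to 3 counts in each cisplatin library and was at least 3.98-fold higher. Macrophage markers summed to 155 to 258 CPM in co-treated and 274 to 393 CPM in cisplatin-treated mice, with 1 of 10 higher and 3 lower. The B cell markers ranged from 4.81 to 22.7 against 2.21 to 6.53 CPM, with 2 of 6 higher and 1 lower, the dendritic cell markers from 13.8 to 17.7 against 16.04 to 18.7 CPM, with 0 of 6 higher and 2 lower, and the neutrophil markers from 4.04 to 7.80 against 5.80 to 12.1 CPM, with 0 of 5 higher and 3 lower and Mpo at 0 counts in both groups.

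Of the cells that belong to the kidney, proximal tubule markers summed to 8752 to 12346 CPM in co-treated mice and 3666 to 5753 CPM in cisplatin-treated mice, with 7 of 8 higher, and thick ascending limb markers to 2398 to 4311 against 2034 to 2366 CPM, with 3 of 4 higher. Of the collecting duct markers 2 of 5 were higher and 0 lower, of the podocyte markers 1 of 4 was higher and 1 lower, and of the endothelial markers 1 of 8 was higher and 2 lower, at 548 to 620 against 563 to 666 CPM. Fibroblast markers were lower for 5 of 6, at 344 to 645 against 776 to 1016 CPM, and fat markers were lower for 5 of 6, at 38.4 to 230 against 340 to 640 CPM. In total 21 of 81 tested markers were higher and 24 lower, close to the 28.6% and 27.2% of all tested genes. KW6002 alone changed 0 of the 81 in edgeR (0.0175% of all tested genes were higher) and 0 in DESeq2, with 7 at an unadjusted p below 0.05 (11.3% of all tested genes).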

How the data were processed

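Kidney RNA of 22 mice was sequenced as single 50-base reads, 1 library per mouse. Per the labels and the study's methods, the authors demultiplexed with bcl2fastq (2.17.1.14), aligned to mm10 with STAR, kept uniquely aligned reads, and counted them per gene with HTSeq (0.6.1p1) in union mode. The strand setting of the counting is not given in the sources used here, so reads of overlapping antisense genes may be included. The deposited values are raw counts per gene for 32858 genes. The table also held 66 unnamed columns, which were not used.

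Genes with enough counts (edgeR's filterByExpr, at least 10 counts at the median library size in at least 5 libraries) numbered 17131. Counts were scaled by TMM and fitted with edgeR 4.0.16 (quasi-likelihood, all 22 libraries, 4 groups) in R 4.3.3, and p-values were adjusted over all tested genes by the Benjamini-Hochberg method. The standard error was the log2 fold change divided by the root of the F statistic. DESeq2 1.42.0, other scalings, filters, and thresholds, the label series, a fat marker covariate, and leaving out each mouse were tried as alternatives. On simulated counts for cisplatin against vehicle, 171 of 200 changed genes were recovered and 9 of 16582 unchanged genes were called among 16780 genes. In the data 70.5% of all tested genes passed in that comparison, far more than were changed in the simulation. The simulated rates may therefore not hold for the data. Library totals of 26471762 to 40510754 counts put 1 count at a few hundredths of a CPM, so genes with under 10 counts were described by counts, and a fold against a group with 3 counts or fewer per library was computed against a floor of 3 counts per library.

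The 10 genes and all lists were chosen with earlier results of these data known. Named were the 10 genes, all other IRG, GBP, and signalling genes, at most 4 genes of highest level among those passing between co-treated and cisplatin-treated mice in each other list, markers at 0, and the 8 genes most alike within groups. A signalling gene is not reported here and was left out of its list. Cmpk2, Cd2, and Eomes were named beside small counts after their values were seen. Sequences came from RefSeq (GRCm38.p6).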

Additional observations from a re-analysis of the deposited data

Results flagged for a closer look

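Among 144 sets of one gene in one group (the IRG, GBP, and signalling genes), 7 held a mouse that stood apart from its group by Dixon's criterion, and chance gives about 1 in 20. Irgm1 measured 66.4 CPM in cisplatin replicate 5, with the next mouse at 59.8 CPM, and Ifngr1 was low in the same mouse, at 114 CPM against 144 CPM for the next (113.9 and 143.5 before rounding). Iigp1 measured 18.4 CPM in vehicle replicate 1, with the next at 13.6 CPM. Jak1 was at 197 CPM in vehicle replicate 4, with the next at 181 CPM. Ifi47 was low in KW6002 replicate 2, at 4.36 CPM with the next at 5.09 CPM, and Gm12250 was high in KW6002 replicate 4, at 1.58 CPM with the next at 1.05 CPM. 9930111J21Rik1 measured 0.831 CPM in co-treated replicate 1, with the next at 0.480 CPM.

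The effect of KW6002 differed between mice with and without cisplatin for 9 of 26 IRG, GBP, and signalling genes outside the 10 GTPases (interaction term, edgeR, adjusted over all genes), where 42.7% of all tested genes passed. On the log2 scale the effect with cisplatin minus that without was 0.43 for Ifi47 (edgeR adjusted p = 0.0251), 0.82 for Gm12250 (adjusted p = 0.0351), and 0.45 for Gbp4 (adjusted p = 0.0360). Irf1 had a difference of 0.83 (edgeR adjusted p = 2.89e-05) and Ptpn6 of 0.28 (adjusted p = 0.00723). It was negative for Ifngr1 (-1.02, edgeR adjusted p = 8.32e-06), Ifngr2 (-0.70, adjusted p = 4.68e-05), Jak2 (-0.42, adjusted p = 1.81e-05), and Irgq (-0.30, adjusted p = 0.00320). The same term was not tested for the 10 GTPases, because it contains the comparison that chose them.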

How the results depend on the processing

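Counts of genes that passed stayed within 1.5 times under most alternatives. The exception was a stricter threshold (log2 fold change above 1 in size, with an adjusted p under 0.01). For cisplatin against vehicle it left 3 of the 10 GTPases, 1 other IRG or GBP gene, 3 signalling genes, 11 other targets, 10 type I genes, 2 partner genes, 37 markers, and 4137 of all genes. For co-treated against cisplatin it left 1 other IRG or GBP gene, 1 signalling gene, 8 other targets, 3 type I genes, 0 partner genes, 21 markers, and 1766 of all genes. For co-treated against vehicle these numbers were 1, 2, 8, 3, 1, 24, and 2300. The count over all genes for KW6002 against vehicle was 3, and it was 0 at the stricter threshold, 99 with DESeq2, 0 with the 2 groups alone, 40 with the label series as covariate, 8 with mice of the 500s, 1 with the fat markers as covariate, and from 1 to 64 on leaving out a mouse (64 without vehicle replicate 3). Partner genes in that comparison went from 0 to 1 with DESeq2 and ranged from 0 to 1 on leaving out a mouse. With at least 10 counts in every library, 37 markers passed for cisplatin against vehicle. With the fat marker covariate, 11 type I genes passed for co-treated against cisplatin. With mice of the 500s alone, the median log2 fold change of the 10 GTPases was 0.40 for KW6002 and 1.31 for co-treated against vehicle. The cause of these shifts was not tested.

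Directions turned for 3 values that were close to 0. For cisplatin against vehicle, Irgm2 was 0.18 with library size alone, 0.13 with the label series, 0.21 within the 500s, and -0.10 to 0.034 on leaving out a mouse (0.00 without vehicle replicate 2, 0.01 without cisplatin replicate 4). Iigp1 was 0.18 with library size alone, 0.10 within the 500s, and -0.12 to 0.078 on leaving out a mouse (0.03 without cisplatin replicate 2). For co-treated against vehicle, Tgtp2 was -0.045 with the label series and -0.011 to 0.13 on leaving out a mouse. Scaling by library size alone moved the median of all genes by 0.22 for cisplatin and 0.16 for co-treated against vehicle, and Irgm1 (0.37) and Gbp2 (0.41) then passed for cisplatin. The deviations of same-numbered mice had r from -0.12 to 0.05 for cisplatin and vehicle, -0.16 to 0.08 for co-treated and cisplatin, and -0.17 to 0.09 for co-treated and vehicle. For KW6002 and vehicle, whose same-numbered mice share a label series, r was 0.41, 0.13, 0.15, and 0.19 in 4 pairs and -0.15 in the other. In no comparison was every pair above 0.1, so the numbers were not taken to pair the mice. A fit with the replicate number as a block called 1 gene for KW6002 against vehicle and moved no other count by over 1.5 times. The median r between the 10 genes, 0.44, was 0.51 with that block and 0.48 with the label series or the fat markers taken out, alternatives added after the data were seen.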
